A study of Mus musculus with 9 samples.

Results

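The CCT chaperonin folds newly made proteins in the cytosol and the mitochondrial chaperonin folds proteins in the mitochondrial matrix. The genes described are the 8 that encode the subunits of CCT (Tcp1, Cct2, Cct3, Cct4, Cct5, Cct6a, Cct7 and Cct8) and the 2 that encode the mitochondrial machine (Hspd1 and Hspe1). They were taken by gene symbol, and all 10 were found among the 55367 genes of the count table. CCT is a barrel of stacked rings in which each subunit holds a fixed place, and actin and tubulin are its best known clients. The mitochondrial chaperonin is a barrel of HSP60, the product of Hspd1, closed by a cap of HSP10, the product of Hspe1, and both genes start from the same stretch of chromosome 1. Bone-forming cells secrete much collagen, which is folded in the endoplasmic reticulum by other chaperones.

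The study sequenced RNA from whole spontaneous osteosarcomas of mice, 1 library per tumor, to characterize a mouse model with a Myc knockin. The p53-driven group held 4 tumors of genotype Col2.3-Cre/TrpP53fl/+, that is, Cre recombinase under the osteoblast-specific Col2.3 promoter and 1 floxed Trp53 allele. The Myc-knockin group held 5 tumors whose label gives Cre, a Lox-Stop-Lox (LSL) c-MycT58A allele and p53fl/+, from crossing the LSL-MycT58A mice with the p53-driven line. Both groups therefore shared the Col2.3-driven Cre and the floxed Trp53 allele, and the recombination was limited to cells in which that promoter acts. Ages were not used here. After the columns of the table, the p53-driven tumors are called F187, F325, F331 and F368, and those with the Myc knockin are called M351, M408, M9, M624 and M664. The genotype of M351, M9 and M664 was taken from the letter of the column name.

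Total counts ran from 2716322 (M351) to 17073285 (M624), with a median of 6853293. The libraries differed in kind, which bears on every result given here. In 4 of them, 11 genes held much of the counts: 44.3% in F187, 67.9% in M351, 23.2% in M408 and 81.0% in M9, against at most 0.0242% in each of the other 5. These 11 are called satellite genes here, without a check against repeat annotation. The choice of the 11 genes used minimum settings of 100 CPM and a ratio of 20 of these 4 libraries over the other 5. It thus drew on the counts themselves, and the contrast between the 4 and the other 5 was partly fixed by it. Outside those genes M9 held 672104 counts and M351 held 873137. The second trait was the level of Rn7sk, a small nuclear RNA without a poly(A) tail. In CPM (counts scaled to a common total), taken here of the counts outside the satellite genes, Rn7sk stood at 5.33 (M624) and 9.32 (M664), and at 8858 or more in the 7 other tumors. Because both libraries without Rn7sk were Myc-knockin, that trait and the genotype cannot be told apart in these 2 tumors. Results are therefore also given without M624 and M664, and without the 4 libraries with satellite counts, a setting that leaves M624 and M664 as the only Myc-knockin tumors.

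Levels are CPM scaled with the TMM method. Calls needed a fold change above 1.5 with p below 0.05 after Benjamini-Hochberg adjustment in the edgeR quasi-likelihood test of 15365 genes. Fold changes are log2 values, Myc-knockin over p53-driven. Myc itself served as a check of the labels. Its level was 46.2, 43.5, 67.1 and 60.4 CPM in F187, F325, F331 and F368, and 269.6, 520.3, 144, 1045 and 905 CPM in M351, M408, M9, M624 and M664. Every Myc-knockin tumor was above every p53-driven tumor, and M9 was the lowest of its group. The log2 fold change of Myc was 3.41 ± 0.59 (SE; adjusted p = 0.0217, higher in 5 of 5 tumors), and 2.60 without M624 and M664 (adjusted p = 0.0300). The call was lost when F325, F331 or F368 was left out, at log2 fold changes of 3.33, 3.54 and 3.46 (adjusted p = 0.0813, 0.0782 and 0.0909). Those fits called 8, 6 and 5 of all genes tested, against 809 with all tumors, which bears on each count of such fits below.

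All 10 chaperonin genes passed the filter on low counts and had a higher mean in the Myc-knockin tumors. Called higher were 2 of the 10, Hspd1 and Hspe1, against 2.26% of all genes tested (348 of 15365). None of the 10 was called lower, against 3.00% of all genes. At an unadjusted p under 0.05, 6 of the 10 were higher, against 14.9% of all genes, and a log2 fold change above 0 was found for 10 of 10, against 56.2%. The median log2 fold change of the 10 was 0.91 (0.57 to 1.85), beside 0.14 over all genes tested. In Cct3 alone every Myc-knockin tumor was above every p53-driven tumor, a pattern that 5.41% of all genes showed.

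The count of called members moved with the libraries. Without M624 and M664 no member was called by edgeR (1.80% of all genes were called higher), 4 of 10 had an unadjusted p under 0.05, and the median log2 fold change was 0.55 (all genes 0.08). The share of all genes at an unadjusted p under 0.05 is given only for higher genes with all 9 tumors. Counts at that p in other settings therefore have no background beside them. Without the 4 libraries with satellite counts 7 of 10 were called, with a median of 1.55, and 15.7% of all genes were called higher. DESeq2 and limma-voom on all 9 tumors each called 4 of 10, namely Cct2, Cct3, Hspd1 and Hspe1, where they called 10.1% and 6.64% of all genes higher. The log2 fold change was above 0 for each of the 10 genes in all of these settings.

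**Figure D1:**
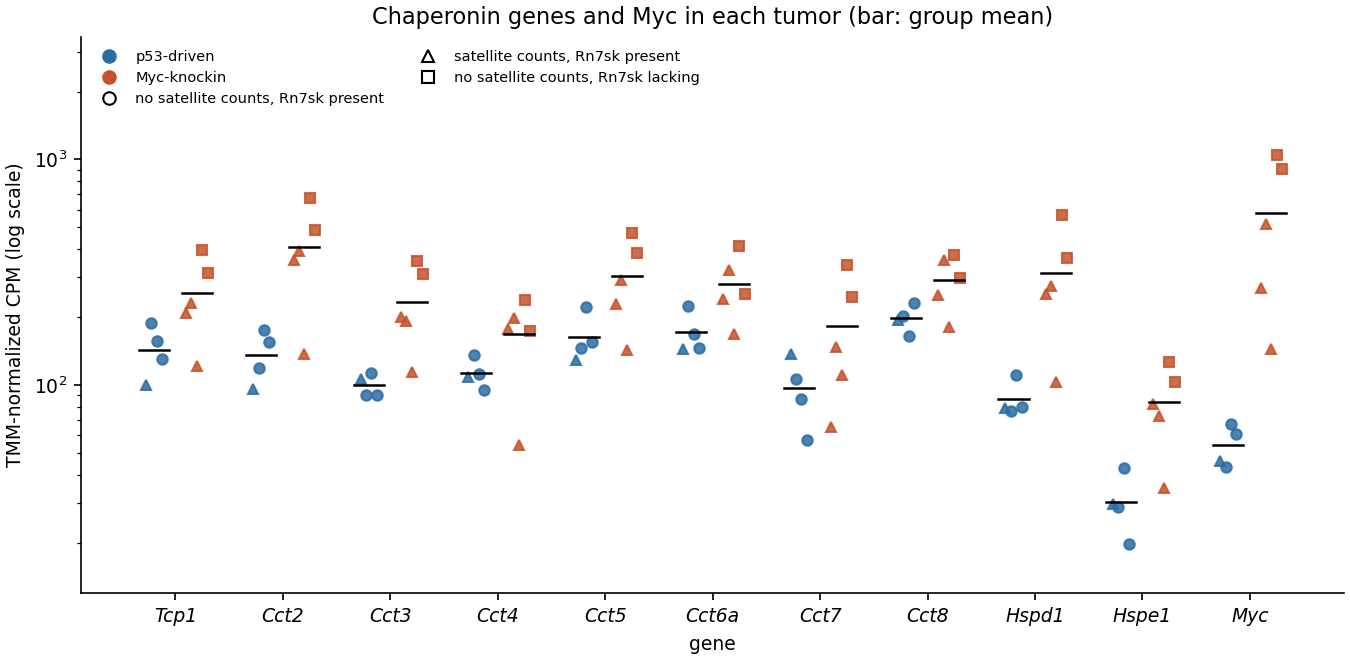
TMM-normalized CPM (log scale) of the 10 chaperonin genes and Myc, 1 point per tumor, with bars at the group means and symbols for the 2 library traits. M9 sits among the p53-driven tumors for most members, and M624 is the highest Myc-knockin tumor for all 10.

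Among the Myc-knockin tumors the same tumors were highest and lowest for most members. M624 was the highest of the 5 for 10 of 10 members, and M9 was the lowest for 9, with M351 the lowest for Cct7. The summed level of the 8 CCT genes was 1017.5, 1212, 1198 and 1059 CPM in F187, F325, F331 and F368, and 1731.5, 2137, 1030.1, 3270.1 and 2473 CPM in M351, M408, M9, M624 and M664. M9 lay within the p53-driven range on this sum, and the other 4 Myc-knockin tumors were above it. M408, M624 and M664 exceeded every p53-driven tumor for 10 of 10 members, M351 for 9 and M9 for 1. M9 was also the tumor with the lowest Myc level of its group, the fewest counts outside satellite genes and the largest share of counts spread over the genome (an estimated 23.1%). The part of each of these in its low member levels was not tested. That estimated background was above 5% of a member's counts only for Cct3 (5.53%), Cct4 (7.68%) and Cct7 (6.06%) in M9 and for Cct7 in M351 (7.19%).

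Among the CCT subunits, Cct2 (ENSMUSG00000034024, chr10:117051001-117063814, minus strand) encodes CCT-beta. Cct2 stood at 96.0, 119, 176 and 155 CPM in F187, F325, F331 and F368, and at 359, 392, 137, 678 and 489 CPM in M351, M408, M9, M624 and M664. Of the Myc-knockin tumors 4 were above every p53-driven tumor, and M9 was between F325 and F368. The means were 136 ± 35.6 CPM (SD, n = 4) and 411 ± 197 CPM (SD, n = 5). The log2 fold change of Cct2 was 1.59 ± 0.44 (SE; adjusted p = 0.0568), short of the threshold, and it was 1.19 without M624 and M664 (adjusted p = 0.111). Leaving out M9 alone gave 1.82 and a call (adjusted p = 0.0197).

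Cct3 (ENSMUSG00000001416, chr3:88297116-88321767, plus strand) encodes CCT-gamma. Its level was 106, 90.1, 113 and 90.1 CPM in F187, F325, F331 and F368, and 200.1, 191, 114, 355.5 and 311 CPM in M351, M408, M9, M624 and M664. The p53-driven tumors lay close together, and M9 exceeded the highest of them, F331, by under 1 CPM. At means of 99.9 ± 11.7 CPM (SD, n = 4) and 234 ± 97.5 CPM (SD, n = 5), the groups touched without overlap. An estimated 5.53% of the Cct3 counts of M9 were background spread over the genome, more than its margin over F331. Cct3 had a log2 fold change of 1.23 ± 0.35 (SE; adjusted p = 0.0620, higher in 5 of 5 tumors), again not called. Without M624 and M664 it was 0.82 (adjusted p = 0.111), and without M9 it was 1.41 and called (adjusted p = 0.0232).

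Tcp1 (ENSMUSG00000068039, chr17:12915701-12925067, plus strand), which encodes CCT-alpha, ranged from 99.9 CPM (F187) to 188 CPM (F325) in the p53-driven tumors. Tcp1 was at 209, 231, 122, 398 and 315 CPM in M351, M408, M9, M624 and M664, so that M9 alone fell inside the p53-driven range. Its log2 fold change was 0.83 ± 0.37 (SE; adjusted p = 0.178), with 4 of 5 tumors above every p53-driven one. Cct5 (ENSMUSG00000022234, chr15:31590800-31601804, minus strand), which encodes CCT-epsilon, lay between 129 CPM (F187) and 221 CPM (F331) in the p53-driven group. Cct5 was at 229, 293, 143, 469.9 and 386 CPM in M351, M408, M9, M624 and M664. Again only M9 overlapped the p53-driven tumors, and M351 cleared the highest of them, F331, by a small margin. Cct5 had a log2 fold change of 0.90 ± 0.38 (SE; adjusted p = 0.153), with 4 of 5 tumors above the p53-driven range.

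The smallest differences were those of Cct8, Cct4 and Cct6a. Cct8 (ENSMUSG00000025613, chr16:87483326-87495873, minus strand), which encodes CCT-theta, was at 164 to 230.0 CPM in the p53-driven tumors and at 182 (M9) to 376 CPM (M624) in the Myc-knockin tumors. Its log2 fold change was 0.57 (95% interval -0.09 to 1.22, adjusted p = 0.252, 4 of 5 tumors above the p53-driven range). Cct4 (ENSMUSG00000007739, chr11:22990519-23003780, plus strand), which encodes CCT-delta, was at 94.8 to 135 CPM in the p53-driven group. In M9 Cct4 stood at 54.2 CPM, below every p53-driven tumor, while the other 4 Myc-knockin tumors ranged from 174 CPM (M664) to 239.5 CPM (M624). For Cct4 the log2 fold change was 0.59 (95% interval -0.24 to 1.42, adjusted p = 0.343), and 0.82 when M9 was left out. Cct6a (ENSMUSG00000029447, chr5:129786998-129846371, plus strand), which encodes CCT-zeta, was at 145 to 225 CPM in the p53-driven tumors and 168 (M9) to 414 CPM (M624) in the Myc-knockin tumors. It had a log2 fold change of 0.71 (95% interval -0.000661 to 1.43, adjusted p = 0.187, 4 of 5 tumors above the p53-driven range).

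Cct7 (ENSMUSG00000030007, chr6:85451514-85468475, plus strand), which encodes CCT-eta, was the subunit whose difference rested most on M624 and M664. Its level was 137.5, 106, 86.9 and 57.4 CPM in F187, F325, F331 and F368, and 65.3, 147, 111, 339 and 247 CPM in M351, M408, M9, M624 and M664. M351 and M9 lay inside the p53-driven range and M408 lay just above it, while M624 and M664 were far higher. For Cct7 the log2 fold change was 0.91 ± 0.47 (SE; adjusted p = 0.237) with all tumors, and 0.22 without M624 and M664 (adjusted p = 0.739).

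**Figure D2:**
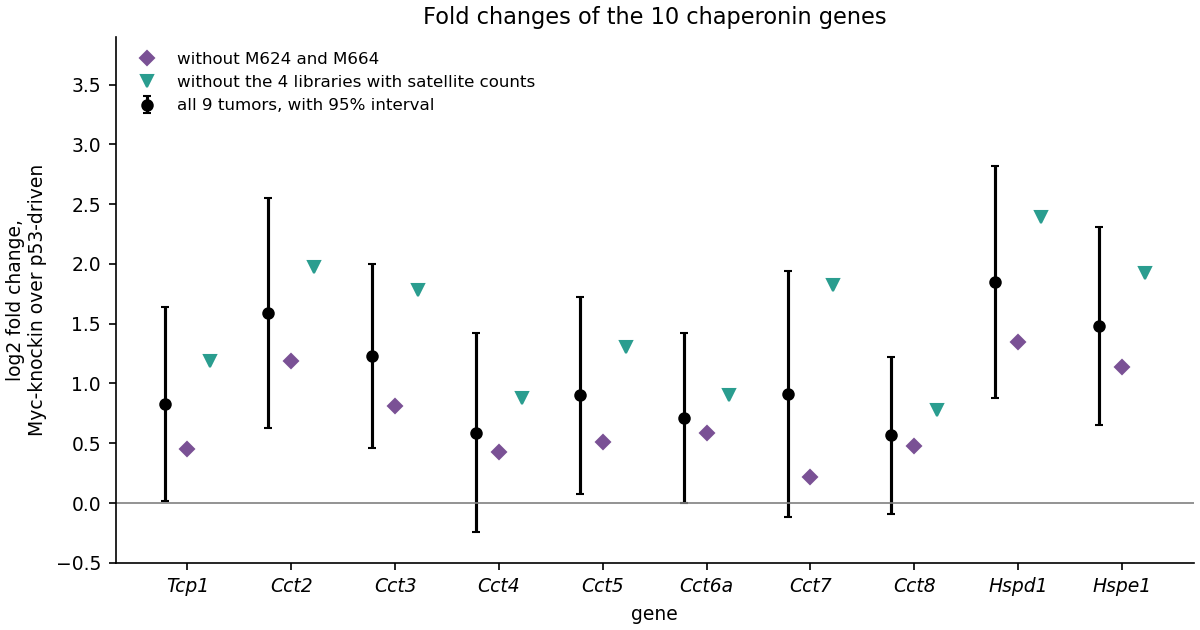
Log2 fold change (Myc-knockin over p53-driven) of each of the 10 genes with all 9 tumors and its 95% interval, without M624 and M664, and without the 4 libraries with satellite counts. All 30 points are above 0, and Cct7 shows the widest spread, from 0.22 to 1.83.

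Exons of several members are shared with genes on the opposite strand, and the strand setting of the counting was not given in the sources used here. The shared part was 12.5% of the merged exon length of Cct6a (with Psph), 11.4% of Tcp1 with Acat3 and 2.80% with Mrpl18, 6.22% of Cct8 (with Usp16) and 3.16% of Cct7 (with Pradc1). How far that changed the counts was not tested.

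Levels of different genes were compared as CPM per kb of merged exon length. In the p53-driven tumors the order of the 8 subunits by mean was Cct8 (64.1 CPM per kb), Cct5 (58.9), Cct2 (53.3), Cct6a (47.3), Tcp1 (28.6), Cct4 (26.8), Cct3 (15.7) and Cct7 (14.3). In that group neighbors from Cct8 to Cct6a were separated by less than the SD of Cct5 or Cct2 (14.6 and 13.9 CPM per kb), as were Tcp1 and Cct4, and Cct3 and Cct7, by the SD of Tcp1 (7.46) and of Cct7 (4.96). In the Myc-knockin tumors Cct2 came first (161 CPM per kb), followed by Cct5 (109.9), Cct8 (94.8), Cct6a (77.5), Tcp1 (50.7), Cct4 (40.2), Cct3 (36.8) and Cct7 (26.8). The step from Cct6a to Tcp1 was slightly larger than the SD of Cct6a (25.8 CPM per kb). Each other step was smaller than the larger SD of its 2 neighbors, that of Cct2 being 77.1 CPM per kb. These SDs are between tumors, while all 8 subunits were measured in the same tumors. Within every Myc-knockin tumor Cct2 was above Cct5, Cct8 above Cct6a, Cct6a above Tcp1 and Cct3 above Cct7. Within every p53-driven tumor Cct6a was above Tcp1 and Cct4 above Cct3. For the other neighbors the order differed between tumors of a group. Apart from the exchange of places between Cct2 and Cct8, the order of the means was the same in both groups.

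Within single tumors, Cct2 made up 13.9%, 14.3%, 20.4% and 19.96% of the summed CPM per kb of the 8 subunits in F187, F325, F331 and F368. The share of Cct2 in M351, M408, M9, M624 and M664 was 28.3%, 25.1%, 19.0%, 29.0% and 27.9%. The 4 Myc-knockin tumors other than M9 were above every p53-driven tumor, and Cct2 was the subunit with the highest level in those 4. The highest subunit was Cct8 in F187, F325, F368 and M9, and Cct5 in F331. The coefficient of variation of the 8 levels within a tumor was 54.1 ± 7.61% in the p53-driven tumors (SD, n = 4) and 61.8 ± 4.39% in the Myc-knockin tumors (SD, n = 5), ranges that overlapped. These levels depend on the length used: with the longest spliced transcript of each gene the mean coefficient over all 9 tumors was 36.6%, against 58.4% with merged exons. Cct2, Cct5, Cct8 and Cct6a held the first 4 places, in that order by the mean over all tumors, with each of the 3 lengths tried, and the places of Tcp1, Cct3, Cct4 and Cct7 changed.

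**Figure D3:**
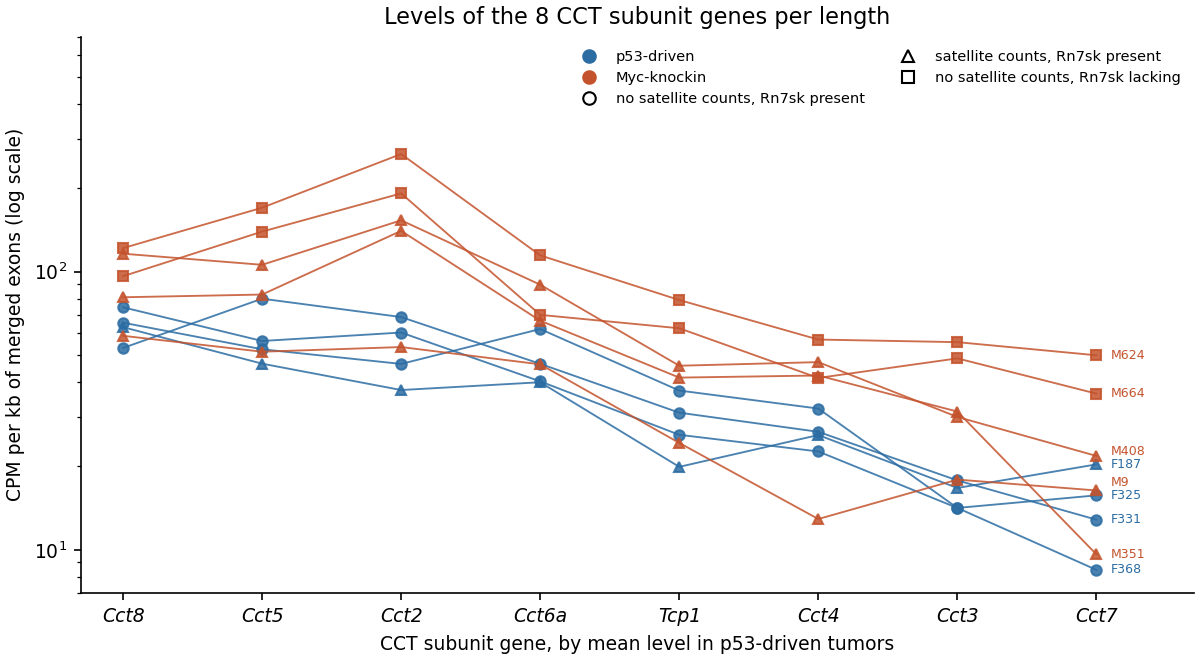
CPM per kb of merged exons (log scale) of the 8 CCT subunit genes, 1 line per tumor, genes in the order of their p53-driven means. Cct2 is the highest point in M351, M408, M624 and M664, at 140.3 to 265 CPM per kb.

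Hspd1 (ENSMUSG00000025980, chr1:55077835-55088243, minus strand), which encodes the barrel protein HSP60, had the largest log2 fold change of the 10. It stood at 79.4, 76.9, 111 and 80.0 CPM in F187, F325, F331 and F368, and at 254, 274, 103, 565 and 367.5 CPM in M351, M408, M9, M624 and M664. The Myc-knockin tumors were all above F187, F325 and F368, and M9 was below F331. The means were 86.9 ± 16.2 CPM (SD, n = 4) and 313 ± 170.1 CPM (SD, n = 5). Hspd1 rose with a log2 fold change of 1.85 (95% interval 0.88 to 2.82, adjusted p = 0.0411, 4 of 5 tumors above the p53-driven range). It was 1.34 without M624 and M664 (adjusted p = 0.0668, not called), and without the 4 libraries with satellite counts it was 2.40 (adjusted p = 0.00870). Of the 9 fits that each left out 1 tumor, Hspd1 was called in 2, those without M408 and without M9. Its log2 fold change in the 9 was 1.59 to 2.08, and leaving out F187, F325, F331, F368, M351, M624 or M664 raised the adjusted p to between 0.0510 (M664) and 0.167 (F368). Of all genes tested, the fits without F325, F331 and F368 called 8, 6 and 5. For Hspd1 the other settings were as follows. It was not called with library size alone (2.00, adjusted p = 0.2197), a term for Rn7sk (1.28, 0.0773) or all genes of at least 1 count (1.87, 0.0996).

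Hspe1 (ENSMUSG00000073676, chr1:55088132-55091307, plus strand) encodes the cap protein HSP10. Its level was 29.6, 28.9, 42.7 and 19.7 CPM in F187, F325, F331 and F368, and 82.5, 73.1, 35.05, 127 and 103 CPM in M351, M408, M9, M624 and M664. As with Hspd1, M9 was the only Myc-knockin tumor inside the p53-driven range and F331 the highest p53-driven tumor. The means were 30.3 ± 9.47 CPM (SD, n = 4) and 84.1 ± 34.3 CPM (SD, n = 5). Hspe1 rose with a log2 fold change of 1.48 (95% interval 0.65 to 2.31, adjusted p = 0.0476, 4 of 5 tumors above the p53-driven range). Without M624 and M664 it was 1.14 (adjusted p = 0.0977, not called), and without the 4 libraries with satellite counts 1.93 (adjusted p = 0.0170). Among the fits that left out 1 tumor, only the one without M9 called Hspe1. In the other 8 the log2 fold change was 1.30 to 1.71 and the adjusted p 0.0533 (without M408) to 0.192 (without F368), with F187, F325, F331, M351, M624 and M664 between them. Here too the fits without F325, F331 and F368 called 8, 6 and 5 of all genes tested. Hspe1 was also not called with satellite genes removed (1.49, adjusted p = 0.0626), library size alone (1.57, 0.278), a term for Rn7sk (1.08, 0.1025) or all genes of at least 1 count (1.47, 0.158).

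The count table holds 23 pseudogenes named for Hspd1, whose summed counts were 21.8% to 82.2% of those of Hspd1, highest in M9. The copy with most of these counts is described here, and it resembles the spliced transcript. This copy, Hspd1-ps3 (chr11:41498737-41500458), contains 756 of the 2348 windows of 76 bases, the read length, of the Hspd1 transcript, or 32.2%, without a mismatch. Hspd1-ps3 took 34.3% to 40.0% of the summed counts of the 2 genes in 7 libraries, 20% in M624 and 17.9% in M664. When the counts of Hspd1 and of Hspd1-ps3 were summed, without the other pseudogenes, the log2 fold change was 1.65 (adjusted p = 0.0441, called). The share of the copy was thus lower in the libraries without Rn7sk, and the part of this trait in the fold change was not tested. Copies of the other members are not described here.

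The log2 ratio of Hspe1 to Hspd1, each as CPM per kb of merged exons, was -0.58, -0.57, -0.54 and -1.18 in F187, F325, F331 and F368. In M351, M408, M9, M624 and M664 it was -0.78, -1.07, -0.71, -1.31 and -0.996. Hspe1 was the lower of the pair in all 9 tumors by this length, and the groups overlapped, at means of -0.72 ± 0.31 (SD, n = 4) and -0.97 ± 0.24 (SD, n = 5). With the longest spliced transcript as length the mean over all tumors was -0.05 in place of -0.86, with values from -0.51 to 0.27, so that the sign of this ratio depends on the length chosen.

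Hspd1 and Hspe1 lie head to head, with 112 bases of exon shared on opposite strands. In the GENCODE models on the GRCm38 build the first exons of Hspd1 span chr1:55087779-55088024, chr1:55087989-55088243 and chr1:55088145-55088243 on the minus strand. Those of Hspe1 span chr1:55088132-55088412 and chr1:55088314-55088412 on the plus strand. Promoters from RefSeq (GRCm38.p6; 250 bases before to 50 bases after a start, 32851 entries) matched 9 of the 10 members in 12 entries, all but Cct4. In these, 4 motifs were searched on both strands. They were CACGTG, the E-box bound by MYC and other factors (in 7.15% of all promoters), and TTCNNGAA or GAANNTTC, the paired units of heat shock elements (15.1%). The others were CCAAT or its complement ATTGG (37.4%), and GGGCGG or its complement CCGCCC (35.7%).

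CACGTG was found in 1 of the 12 entries, the upstream start of Hspd1. The paired heat shock units were found at 3 overlapping places between the starts of Hspe1 and of the downstream entry of Hspd1, chr1:55088059-55088076, and at 1 place each in entries of Cct6a, Cct2 and Cct5. These matches are descriptions of letters, not sites shown to be bound. The short stretches around both motifs in the Hspd1 and Hspe1 region are shown because this is the pair that was called, with the motif letters in capitals; the first is chr1:55088306-55088335 on the minus strand, the second chr1:55088053-55088082 on the plus strand.
Hspd1, CACGTG: ggccggctgggaCACGTGaaaaggccgcgc
Hspe1, heat shock units: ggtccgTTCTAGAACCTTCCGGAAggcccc

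**Figure D4:**
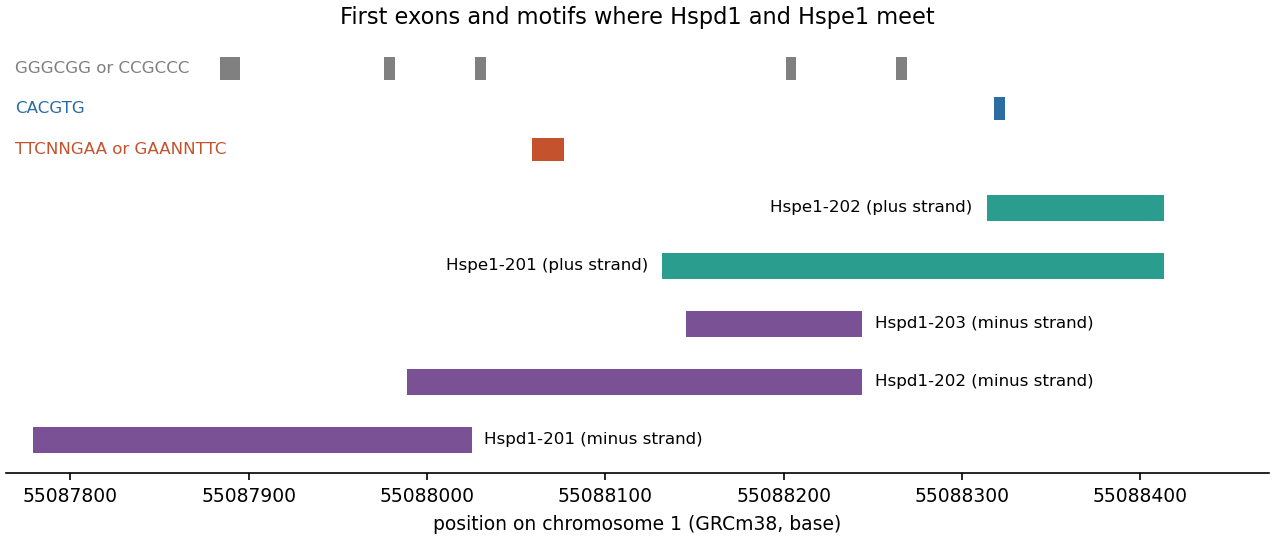
First exons of the annotated transcripts of Hspd1 and Hspe1 and the positions of 3 motifs, along chromosome 1 (GRCm38, in bases). The heat shock units fall at 55088059 to 55088076 and CACGTG at 55088318 to 55088323.

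GGGCGG or its complement was found in all entries but 1 of the pair of Cct5 entries, and CCAAT or its complement in entries of Cct3, Cct6a, Cct7, Tcp1 and Hspd1. The upstream stretches of Cct2 and Cct3 are shown since these were the CCT genes with the largest log2 fold changes, with matches to the last 2 motifs or their complements in capitals. That of Cct2 is chr10:117063853-117064102 on the minus strand and holds CCGCCC at 4 places, and that of Cct3 is chr3:88297000-88297115 on the plus strand.
Cct2: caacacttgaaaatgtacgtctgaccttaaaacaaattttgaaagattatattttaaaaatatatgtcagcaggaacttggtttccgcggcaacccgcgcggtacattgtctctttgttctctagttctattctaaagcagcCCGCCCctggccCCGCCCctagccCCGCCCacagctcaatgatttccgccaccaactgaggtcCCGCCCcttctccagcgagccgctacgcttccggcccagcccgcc
Cct3: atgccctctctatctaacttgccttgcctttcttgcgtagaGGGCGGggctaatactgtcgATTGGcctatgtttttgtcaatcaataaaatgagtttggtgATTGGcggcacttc

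Genes that work with CCT were set beside its subunits. Prefoldin hands unfolded actin and tubulin to CCT, and none of its 6 subunit genes was called by edgeR, with 1 at an unadjusted p under 0.05, 1 called by DESeq2 and 1 by limma-voom. Their median log2 fold change was 0.30 (0.10 without M624 and M664, with 3 of 6 above 0), with Pfdn2 at 0.88 (adjusted p = 0.0881, 5 of 5 tumors above the p53-driven range) and Pfdn6 at 0.74 (adjusted p = 0.308), the latter -0.0048 without M624 and M664. Of the phosducin-like and thioredoxin-like cochaperones of CCT, 3 of 4 were tested and none was called by edgeR, DESeq2 or limma-voom, none having an unadjusted p under 0.05. Pdcl3 had a log2 fold change of -0.44 and Pdcl of -0.24 (adjusted p = 0.315 and 0.602). Other chaperonin-like genes, the testis-type subunit Cct6b and the Bardet-Biedl genes Mkks, Bbs10 and Bbs12, had 3 of 4 tested and none called by the 3 tools (none at an unadjusted p under 0.05 in edgeR, 1 lower in limma-voom), with Mkks at -0.64 and Bbs12 at 0.55 (adjusted p = 0.368 and 0.365).

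Clients of CCT were examined in the same way. Of 15 actin and tubulin genes none was called by edgeR, 2 were higher and 2 lower at an unadjusted p under 0.05, DESeq2 called 1 in each direction and limma-voom 1 lower. The gene called lower by both tools was Actb, named after its values were seen. Its mean was 4196 CPM in the p53-driven and 1846 CPM in the Myc-knockin tumors. In edgeR its log2 fold change was -1.185 (adjusted p = 0.113, lower in 5 of 5 tumors). Actg1, a cytoplasmic actin, stood at 424 CPM (M624) and 465 CPM (M664), and at 11.95 to 34.0 CPM in the 7 other tumors. Tuba1b, an alpha-tubulin, stood at 547 and 431 CPM in the same 2 tumors and at 28.6 to 55.3 CPM in the others. The log2 fold changes of Actg1 and Tuba1b were 2.84 and 2.56 (adjusted p = 0.129 and 0.0772), and -0.59 and 0.49 without M624 and M664, and the high levels of both were those of the 2 libraries without Rn7sk. The median of the 15 was 0.34, that of the 14 tested without M624 and M664 was -0.34, and without the 4 libraries with satellite counts it was 0.85, with 4 called higher and 1 lower. Of 10 other clients, which include cell cycle regulators and proteins with WD repeats, 1 was called by edgeR, Strn, which fell by 1.18 on the log2 scale (adjusted p = 0.0288, lower in 5 of 5 tumors; called in 3 of the 9 fits without 1 tumor). Wrap53 and Cdc20, named after their values were seen, had log2 fold changes of 1.93 and 1.92 (adjusted p = 0.0545 and 0.0651) and were called by DESeq2 and limma-voom, as was Strn. Without M624 and M664 or with a term for Rn7sk none of these 10 clients was called by edgeR, with 2 higher and 2 lower at an unadjusted p under 0.05 in each, and none with library size alone (3 higher and 1 lower). The tubulin cofactors, which take tubulin from CCT, had 6 of 6 log2 fold changes above 0 (median 0.56) with all tumors and 3 of 6 (median 0.03) without M624 and M664, with none called by edgeR, DESeq2 or limma-voom and 2 at an unadjusted p under 0.05 with all tumors. Without the 4 libraries with satellite counts edgeR called 3 of the 6 cofactors, Arl2, Tbca and Tbcb, and the median of the 6 was 1.15. Arl2 and Tbca had log2 fold changes of 1.19 and 1.19 (adjusted p = 0.155 and 0.163), and 0.31 and 0.35 without M624 and M664.

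In mitochondria, HSP70 and its partners pull proteins into the matrix and pass some of them to HSP60. None of the 9 genes listed with that system, not all of which act in import, was called by edgeR. At an unadjusted p under 0.05, 2 were higher, and DESeq2 called 1 and limma-voom 2. Their median log2 fold change was 0.49 (0.11 without M624 and M664), with Timm44 at 1.03 and Hscb at 1.01 (adjusted p = 0.0978 and 0.212). Of the 9 mitochondrial protease and disaggregase genes none was called by edgeR, 2 were higher and 1 lower at an unadjusted p under 0.05, and DESeq2 called 2 and limma-voom 1. Their median was 0.47, with Clpp at 1.37 and Htra2 at 1.06 (adjusted p = 0.0880 and 0.231), the latter -0.09 without M624 and M664. With all 9 tumors the log2 fold changes of Hspd1 and Hspe1 were larger than that of any of these 18 genes, but without the 4 libraries with satellite counts Clpp (2.145) and Htra2 (2.04) were above Hspe1 (1.93).

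Other cytosolic chaperones were set beside the CCT genes. HSP90 and its cochaperones had 2 of 11 genes called higher by edgeR (4 by DESeq2 and 4 by limma-voom) and a median log2 fold change of 0.83. Without M624 and M664 edgeR called 1, Ahsa1, and the median was 0.48, and with library size alone or a term for Rn7sk it called none, with 2 and 4 at an unadjusted p under 0.05. Ahsa1, which stimulates the ATPase of HSP90, was at 31.2 to 45.5 CPM in the p53-driven tumors and 64.5 to 128 CPM in the Myc-knockin tumors, without overlap (log2 fold change 1.24, adjusted p = 0.0354, 5 of 5 tumors higher). Fkbp4, a cochaperone of steroid receptors, was at 51.1 to 62.8 and 78.1 to 362 CPM, also without overlap (log2 fold change 1.92, adjusted p = 0.0411, 5 of 5 tumors higher). Ahsa1 was called in 4 and Fkbp4 in 3 of the 9 fits without 1 tumor. The HSP70 and HSP40 list had none of 16 called by edgeR, 3 higher and 1 lower at an unadjusted p under 0.05, 1 called lower by DESeq2, and 1 higher and 2 lower by limma-voom, with a median of 0.25. Its stress-inducible genes Hspa1b and Hspa1a had log2 fold changes of 1.40 and 1.38 at mean levels of 7.82 and 3.47 CPM in the Myc-knockin tumors (adjusted p = 0.150 and 0.264). Among Hsf1, Hsf2 and 4 small heat shock and related genes none was called by edgeR, DESeq2 or limma-voom and none had an unadjusted p under 0.05 (median 0.30), with Cryab at -1.09 and Hspb1 at 0.67 (adjusted p = 0.361 and 0.615).

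Chaperones of the endoplasmic reticulum mostly had lower levels in the Myc-knockin tumors. Of 15, edgeR called 3 lower and none higher (7 lower by DESeq2 and 7 by limma-voom), 13 of 15 log2 fold changes were below 0, and their median was -0.60. All 3 calls were lost without M624 and M664, where the median was -0.74 and 9 were lower at an unadjusted p under 0.05, and with library size alone, where 3 were. No share of all genes lower at that p, or lower in 5 of 5 tumors, is given in this report for comparison. Pdia4, a disulfide isomerase, was at 199 to 421 CPM in the p53-driven tumors and 89.2 to 142 CPM in the Myc-knockin tumors, and fell by 1.42 on the log2 scale (adjusted p = 0.0289, 5 of 5 tumors lower). Dnajc3 fell by 1.503 and Dnajb11, a cochaperone of BiP, by 0.96 on the log2 scale (adjusted p = 0.0321 and 0.0441, 5 of 5 tumors lower for each). These 3 were called in 4, 3 and 2 of the 9 fits without 1 tumor. Where the calls were lost, the log2 fold changes of Pdia4, Dnajc3 and Dnajb11 were -1.39, -1.435 and -1.04 without M624 and M664. With library size alone they were -1.42, -1.55 and -0.96. With a term for Rn7sk edgeR called Pdia4 and Dnajb11 lower, but not Dnajc3. Of 31 constitutive proteasome genes, none was called by edgeR, 5 were higher at an unadjusted p under 0.05, and DESeq2 called 4 and limma-voom 2. The proteasome median was 0.26 (0.09 without M624 and M664), with Psmb3 at 2.26 and Psma5 at 1.85 (adjusted p = 0.105 and 0.0943), and Psmb3 at 106 and 118 CPM in M624 and M664 against 8.29 to 15.6 CPM in the rest.

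Without the 4 libraries with satellite counts, where M624 and M664 were compared with 3 p53-driven tumors and 15.7% of all genes were called higher, edgeR called more genes in several of these lists. It called higher 2 of 6 prefoldin genes, 4 of 10 other clients (and 1 lower), 3 of 9 genes of the mitochondrial HSP70 list and 4 of 9 mitochondrial protease genes (and 1 lower). In the same setting 5 of 11 HSP90 genes, 8 of 31 proteasome genes (median of the 31, 0.70) and 3 of 16 HSP70 and HSP40 genes (and 2 lower) were called higher. Lower were 3 of 15 endoplasmic reticulum genes (Dnajb9, Dnajc3 and Pdia3, but not Dnajb11 or Pdia4) and 1 of 6 in the list of Hsf1 and small heat shock genes, where 12.1% of all genes were called lower, and none of the phosducin-like or other chaperonin-like genes was called or had an unadjusted p under 0.05.

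Markers of the cells in a whole tumor moved with the groups, and their part in the chaperonin results was not tested. In bulk RNA, fewer cells of a type and less RNA per cell cannot be told apart. The summed level of 10 osteoblast markers was 65620, 136720, 133656 and 141230 CPM in F187, F325, F331 and F368, and 16189, 9908, 18962, 3610 and 41407 CPM in M351, M408, M9, M624 and M664. The groups did not overlap in this sum, most of which was Col1a1 and Col1a2. Of the 10 genes, 4 had every Myc-knockin tumor below every p53-driven tumor. The others overlapped, such as Sp7 at 239.7 CPM in M664 and 180.1 CPM in F187. All 10 log2 fold changes were below 0 (median -1.08), and 1, Bglap, was called lower by edgeR. DESeq2, limma-voom and edgeR without M624 and M664 each called 3 lower (Bglap, Col1a1 and Col1a2). With a term for Rn7sk, or without the 4 libraries with satellite counts, edgeR called none, with 3 and 1 lower at an unadjusted p under 0.05. Col1a1 was the most abundant (40517 to 89709 CPM in p53-driven, 2098 to 20368 CPM in Myc-knockin tumors), Runx2 and Sp7 were present in all 9 tumors, lowest in M624 (9.18 and 25.9 CPM), and Bglap was at 0 in M408.

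The summed level of 8 osteoclast markers was 7242.5, 5216, 14151 and 2716 CPM in F187, F325, F331 and F368, and 352, 261, 124, 286.5 and 2570.4 CPM in M351, M408, M9, M624 and M664. Of these 8, edgeR called 6 lower (Atp6v0d2, Oscar, Calcr, Dcstamp, Ocstamp and Ctsk), and the median log2 fold change of the 8 was -4.01. DESeq2 and limma-voom each called all 8 lower. Mmp9 was the most abundant, and Dcstamp was at 0 in M408. Without M624 and M664 7 of the 8 were called lower, and without the 4 libraries with satellite counts 4 were. For 11 leukocyte and macrophage markers the sums were 885, 909, 1539 and 956 CPM in the p53-driven tumors and 299.8, 425, 292, 289 and 708 CPM in M351, M408, M9, M624 and M664. Lyz2 was the most abundant over all tumors, and Cd79a was at 0 in F325. Of the 9 tested, edgeR called 3 lower (Cd68, Csf1r and Tyrobp), and the median log2 fold change of the 9 was -1.09. Cd14 was higher at an unadjusted p under 0.05 (log2 fold change 1.13) and not called. DESeq2 called 4 and limma-voom 5 lower. The 3 calls were lost with library size alone (4 lower at an unadjusted p under 0.05) and without the 4 libraries with satellite counts, where Itgam and Ptprc were called.

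For 6 genes of dividing cells the sums were 489, 632, 492 and 368.4 CPM in F187, F325, F331 and F368, and 759.6, 948.5, 542.5, 1068 and 467 CPM in M351, M408, M9, M624 and M664. The groups overlapped, edgeR called 1 of the 6 higher (Ccnb1), the median log2 fold change of the 6 was 1.12, and Mki67 was the most abundant. DESeq2 called 4 and limma-voom 3, edgeR called 3 without the 4 libraries with satellite counts, and it called none without M624 and M664, with a term for Rn7sk or with library size alone (3, 2 and 1 at an unadjusted p under 0.05). M9 and M664 were the lowest of the Myc-knockin tumors in this sum, and the relation of the sum to the chaperonin levels was not tested. Erythroid markers summed to 6.61 to 21.2 CPM in the p53-driven tumors, to 17.5 to 46.9 CPM in M351, M408 and M9, and to 217 and 784 CPM in M624 and M664. Hba-a1, the most abundant, was at 102 CPM in M624, 388 CPM in M664 and 0 in the 7 other tumors, where 3 counts correspond to 0.233 to 2.39 CPM. Of the 7 erythroid genes 2 were tested, and neither was called by edgeR, DESeq2 or limma-voom, with none at an unadjusted p under 0.05 in edgeR and 1 in limma-voom. Without the 4 libraries with satellite counts 6 were tested and 4 called higher, Hba-a1, Hba-a2, Hbb-bs and Hbb-bt.

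Markers of skeletal muscle, endothelium and cartilage had no gene called by edgeR with all 9 tumors. Muscle genes summed to 12.2, 5462, 45.8 and 546 CPM in F187, F325, F331 and F368 and to 120.0, 2230.5, 515, 3.47 and 639 CPM in M351, M408, M9, M624 and M664 (Acta1 most abundant, Mb at 0 in F187 and M624). None of the 8 muscle genes had an unadjusted p under 0.05 in edgeR (1 lower in limma-voom) or was called by DESeq2 or limma-voom, and edgeR called 1 lower, Myh4, without the 4 libraries with satellite counts. Endothelial genes summed to 316 to 446 CPM and 75.8 to 395 CPM, with Cdh5 the most abundant, 1 of 5 lower at an unadjusted p under 0.05, and 0 called by DESeq2 and 1 by limma-voom. Cartilage genes summed to 18.1 to 41.9 CPM in F187, F325 and F368, to 2666 CPM in F331 and to 64.6 to 177 CPM in the Myc-knockin tumors, with Col9a1 at 0 in F325. Col2a1 was the most abundant by its level in F331 (2566 CPM), and Sox9 was above it in F187, F325, F368, M408, M9 and M624. Of the 5 cartilage genes 1 was higher and 1 lower at an unadjusted p under 0.05, and DESeq2 called 1 and limma-voom 0. Without the 4 libraries with satellite counts edgeR called 1 cartilage gene higher, Col9a1, and no endothelial gene, with 1 lower at an unadjusted p under 0.05.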

How the data were processed

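The deposited file holds raw counts per gene, which the authors made from paired 76-base reads (stranded total RNA kit with poly(A) enrichment) by trimming with trimGalore, mapping to mm10 with STAR and counting with featureCounts. Settings for strand and multiply mapped reads are not given in the sources used here. Of 55367 gene IDs, 55111 matched GENCODE M21, which supplied positions and exon lengths. Columns were grouped by genotype (5 Myc-knockin, 4 p53-driven tumors) and could not be tied to numbered samples.

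Counts were fitted in R 4.3.3 with edgeR 4.0.16 (TMM, filterByExpr with a minimum count of 10, glmQLFit and glmQLFTest, Benjamini-Hochberg over 15365 genes). The fit was tested on simulated data, and at the spread of these data it left many large differences uncalled, so a gene not called is not shown to be unchanged. Alternatives were upper-quartile scaling, library size alone, DESeq2 1.42.0, limma-voom (limma 3.58.1), other filters, removal of satellite genes, subtraction of a genomic background estimated from 1781 receptor genes, terms for each library trait, removal of libraries, and other lengths. Motifs were searched and figures drawn with Python 3.11.15 (pandas 2.3.3, numpy 2.4.6, matplotlib 3.10.9). Intervals and count floors cover counting error only, or, for fold changes, the spread in the fit. Precision follows depth: 3 counts correspond to 0.114 CPM in M624 and 2.39 CPM in M9.

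The members and lists were chosen with earlier results of these data known. Named were all members and Myc and, from each list, the genes called (at most 4, by smallest p) or, where none was called, the 2 with the largest absolute log2 fold change. Of markers, the most abundant gene was named, and some of the genes called or at 0 were added after their values were seen. The lists were prefoldin, phosducin-like cochaperones, other chaperonin-like genes, actin and tubulin, other CCT clients, tubulin cofactors, mitochondrial HSP70, mitochondrial proteases, HSP70 and HSP40, HSP90, HSF1 and small heat shock genes, endoplasmic reticulum chaperones, the proteasome, and markers of osteoblasts, osteoclasts, leukocytes, muscle, erythroid cells, endothelium, cartilage and dividing cells.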

Additional observations from a re-analysis of the deposited data

Results flagged for a closer look

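In 42 groups of values (members, ratios and marker sums, each within 1 genotype), 10 had 1 tumor far from the others by Dixon's criterion. Chance alone gives about 1 in 20 such groups where values are normally distributed and the groups independent. Neither was shown for these levels and sums, so that rate may not hold here. Hspd1 was at 111 CPM in the p53-driven tumor F331, against 76.9 to 80.0 CPM in the other p53-driven tumors. The log2 ratio of Hspe1 to Hspd1 was -1.18 in the p53-driven tumor F368, against -0.58 to -0.54 in the others. The other 8 were marker sums. Osteoblast markers summed to 65620 CPM in F187 (133656 to 141230 CPM in the other p53-driven tumors), and leukocyte and macrophage markers to 1539 CPM in F331 (885 to 956 CPM). Osteoclast markers summed to 2570.4 CPM in M664 (124 to 352 CPM in the 4 remaining Myc-knockin tumors). Muscle markers summed to 5462 CPM in F325 (12.2 to 546 CPM in the other p53-driven tumors) and to 2230.5 CPM in M408 (3.47 to 639 CPM in the 4 remaining Myc-knockin tumors). Erythroid markers summed to 21.2 CPM in F368 (6.61 to 8.29 CPM) and to 784 CPM in M664 (17.5 to 217 CPM). Cartilage markers summed to 2666 CPM in F331, against 18.1 to 41.9 CPM in the other p53-driven tumors.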

How the results depend on the processing

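Across 22 alternatives the log2 fold change was above 0 for each of the 10 members (220 of 220 values), but how many passed the threshold changed. In place of 2 members called, there were 4 with upper-quartile scaling, DESeq2, limma-voom, at least 10 counts in every tumor, or the genomic background subtracted (4.07%, 10.1%, 6.64%, 8.46% and 4.29% of all genes were called higher there, in place of 2.26%). There were 0 with all genes of at least 1 count, library size alone, a term for Rn7sk, or M624 and M664 left out, and 1, Hspd1, with satellite genes removed. In the order named, 0.457%, 0.325%, 1.23%, 1.80% and 1.56% of all genes were called higher in these settings. Without the 4 libraries with satellite counts 7 were called (15.7% of all genes), and 6 with a term for satellite counts (7.86%). Leaving out 1 tumor at a time gave 0 to 4 (0 to 6.03%). In place of 809 genes called, there were 136 with library size alone, 2670 with DESeq2, 2977 with limma-voom, 494 with genes of at least 1 count, 1316 with those of at least 10 counts in each tumor, 4595 without the satellite libraries, 491 with the Rn7sk term, 2016 with the satellite term, and 5 to 1588 without 1 tumor. Of the calls 43.0% were higher, against 64.5% with upper-quartile scaling, 58.0% with DESeq2, 59.7% with at least 10 counts, 54.8% with the background subtracted, 56.5% without the satellite libraries and 59.9% with the satellite term, and 34.3% with limma-voom, 36.8% with library size alone, 38.5% with the Rn7sk term and 0 to 58.1% without 1 tumor. Members without overlap between the groups numbered 4 in place of 1 with upper-quartile scaling (7.26% of all genes in place of 5.41%), 0 with library size alone (1.28%), 10 without the satellite libraries (30.1%) and 0 to 9 without 1 tumor (5.08% to 9.98%). The log2 fold change of Myc was 3.63 with library size alone (adjusted p = 0.0659, not called) and 3.15 to 3.66 without 1 tumor. The mean coefficient of variation of the CCT levels was 49.5% with the longest transcript and 36.6% with the longest spliced transcript, in place of 58.4%, and the mean log2 ratio of Hspe1 to Hspd1 -0.37 and -0.0547 in place of -0.86; the different lengths alone make these differences. With Hspd1 and Hspd1-ps3 summed that ratio was -1.45, since only its denominator gained counts. For the others the cause was not tested.

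The median log2 fold change of all genes was 0.14, 0.24 with upper-quartile scaling, -0.08 with limma-voom, 0.03 with library size alone and 0.97 with all genes of at least 1 count. Relative to it the median of the members was higher in each but the last, where it was 0.94. Summing Hspd1 with Hspd1-ps3 and using the longest spliced transcript were chosen after seeing the data. No paired analysis was possible because the columns carry no replicate numbers. Depth limits M9 and M351 most: Hspe1 had 44 counts in M9.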
